A study of Mus musculus with 8 samples.

Results

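The comparison described here is icKO against control in the EAE p50 state, in microglia, the macrophages that live in the brain and spinal cord. It is 1 pair of expression arrays out of 8 arrays in all, and its members were taken from the labels. Experimental autoimmune encephalomyelitis (EAE) is an induced autoimmune disease of mice that serves as a model of multiple sclerosis. The series title presents a conditional knockout in oligodendroglia as a model of the secondary progressive form, and in the design text the naive microglia of floxed mice serve as the control. The control array of the pair is labelled F/F and the controls of the other states FL or, under iguratimod, wt in one label. All of these were taken as the control genotype, whereas the other array is labelled icKO, the knockout genotype. Each of 4 states (naive, EAE, EAE with the antirheumatic drug iguratimod, and EAE p50) holds 1 array of each of 2 genotypes, and all mice are of the strain C57Black/6J. What p50 stands for, which Cre driver was used, the ages of the mice and the number of animals behind an array are not given in the labels. With 1 array a side the difference between the genotypes has no replicate check, so it is given as values and counts, without a test.

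The deletion was aimed at oligodendroglia, the lineage of the cells that make myelin, and not at microglia. Microglia answer a disturbance of their surroundings in layers. Within minutes they transcribe immediate early genes, which need no new protein to be switched on and of which many encode transcription factors of the AP-1 and ATF families. NF-kB driven genes follow, among them chemokines that draw in monocytes and T cells and the cytokines of the interleukin 1 family. In EAE, resting or homeostatic genes such as P2ry12 and Tmem119 are generally given up while phagocytic, lysosomal and antigen presenting genes are taken up, and neutrophils and monocytes enter the tissue. This is background, and whether the differences below are an answer of this kind was not tested.

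Of 30701 named genes, 16129 lay above the median of the named probe sets on at least 1 array of the pair and are called measured. Levels are log2(intensity + 16) and differences are icKO minus control on that scale, which understates the change of dim genes. The median intensity was 243.1 on the control p50 array and 247.9 on the icKO p50 array, within the range of 243.1 to 268.6 over all 8. The genotype labels were not checked against expression. All 11 microglia markers with a probe set were above the array median on both p50 arrays. Their summed intensity was 639871 in control and 572052 in icKO, against 454500 to 567128 on the other 6 arrays. The p50 arrays stood apart from the rest in sex-linked genes. Xist, a noncoding RNA made from the inactive X chromosome, had a level of 15.90 in control and 16.64 in icKO, whereas its range over the other arrays was 7.71 to 8.30. For the Y-linked gene Eif2s3y the p50 levels were 7.29 and 7.40, and the other arrays ranged from 9.44 to 10.17. Both p50 arrays thus lie on the same side for these genes, with Xist higher by 0.73 in icKO, and any contrast of the pair with the other 3 states also sets apart arrays that differ in them.

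On the icKO p50 array 49 genes (0.304% of those measured) were at least 2-fold higher than on the control array, and 15 (0.093%) were at least 2-fold lower. Of the 49, 20 were of kinds named here, with Atf3, Ccl3, Fos, Mid1, Fosb, Adamts1, S100a9 and Jun as the highest of these in that order. The rest, like the lower genes of at least 2-fold, were mainly small RNA genes, chemosensory receptor genes and predicted genes, and on the lower side Nat1, at 8.89 in control and 7.68 in icKO, was the only gene of a kind named here. Among 3032 genes of named kinds that were bright enough to be named, 20 exceeded the control level by 2-fold or more and for 0 the control level exceeded that of icKO by as much. At a threshold of 1.5-fold the counts over all measured genes were 320 higher (1.98%) and 238 lower (1.48%). Counted by sign alone, 44.3% of genes were higher and 55.7% lower, and the median difference was -0.03. The large differences thus lay mostly on the high side while the whole distribution sat slightly on the low side.

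**Figure D1:**
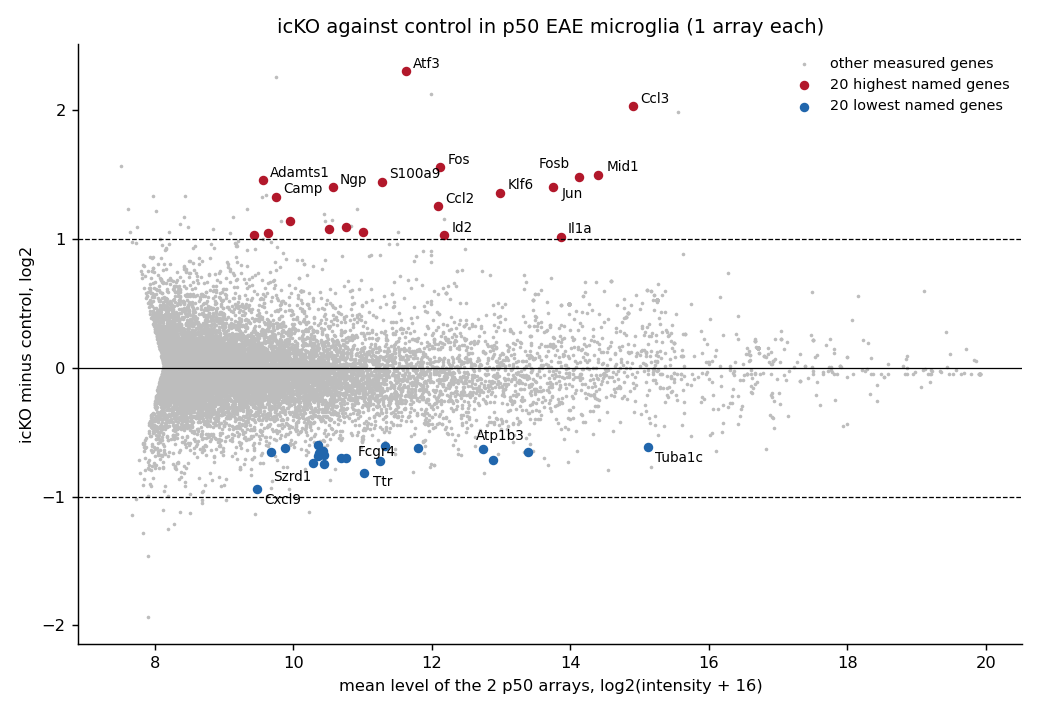
Difference between the icKO and control p50 arrays (y axis, log2) against the mean level of both arrays (x axis, log2(intensity + 16)), with 1 point for each of 16129 measured genes and dashed lines at 2-fold. The 20 highest named genes (red) lie between 1.02 and 2.31, and the 20 lowest (blue) between -0.94 and -0.60, inside the lower line.

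Promoters of some immediate early genes are shown before their values. Many genes of this kind are known targets of CREB and ATF proteins, which bind the cyclic AMP response element (CRE). Promoter sequences came from RefSeq (GRCm38.p6) and span the 250 bases before the start site, given 5′ to 3′ on the strand of the gene. Fos is at chr12:85473640-85473889 on the plus strand, Btg2 at chr1:134079156-134079405 on the minus strand and Dusp1 at chr17:26508473-26508722 on the minus strand. Ppp1r15a is at chr7:45526269-45526518 on the minus strand and Plk2 at chr13:110394794-110395043 on the plus strand. Capitals mark the full element TGACGTCA and, outside it, its first 5 letters TGACG as read on the strand of the gene.
Fos: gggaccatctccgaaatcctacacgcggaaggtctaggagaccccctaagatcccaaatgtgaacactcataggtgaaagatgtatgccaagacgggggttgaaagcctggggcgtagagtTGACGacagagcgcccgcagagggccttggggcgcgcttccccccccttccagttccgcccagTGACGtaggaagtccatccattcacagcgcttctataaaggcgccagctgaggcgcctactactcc
Btg2: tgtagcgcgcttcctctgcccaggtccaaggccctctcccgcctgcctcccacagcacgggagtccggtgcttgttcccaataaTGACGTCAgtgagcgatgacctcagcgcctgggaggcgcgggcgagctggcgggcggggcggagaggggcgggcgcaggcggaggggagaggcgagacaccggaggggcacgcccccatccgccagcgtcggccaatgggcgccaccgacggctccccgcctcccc
Dusp1: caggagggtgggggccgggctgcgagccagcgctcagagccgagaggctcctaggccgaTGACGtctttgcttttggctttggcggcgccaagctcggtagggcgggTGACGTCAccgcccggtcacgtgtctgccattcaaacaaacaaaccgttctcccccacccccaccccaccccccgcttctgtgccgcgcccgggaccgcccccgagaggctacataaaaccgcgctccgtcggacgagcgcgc
Ppp1r15a: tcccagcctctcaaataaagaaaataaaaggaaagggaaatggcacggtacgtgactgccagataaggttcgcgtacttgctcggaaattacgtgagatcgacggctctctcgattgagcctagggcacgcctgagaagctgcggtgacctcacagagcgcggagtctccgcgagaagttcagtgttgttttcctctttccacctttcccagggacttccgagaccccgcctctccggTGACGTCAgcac
Plk2: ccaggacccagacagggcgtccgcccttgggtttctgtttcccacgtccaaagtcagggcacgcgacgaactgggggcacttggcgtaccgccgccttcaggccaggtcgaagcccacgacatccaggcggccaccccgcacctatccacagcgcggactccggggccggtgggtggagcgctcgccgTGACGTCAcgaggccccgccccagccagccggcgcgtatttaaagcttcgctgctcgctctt

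Exact matches were counted on both strands of the 300 bases that run from 250 before to 50 after each start. Of 22 measured genes in the list of other immediate early genes, which leaves out the AP-1 and ATF factors, 17 matched a RefSeq gene, with 26 promoters since some genes have several starts. The full element TGACGTCA was found in 4 of the 26 (15.38%), against 1.79% of 32851 promoters of all genes. These are the promoters of Btg2, Dusp1, Ppp1r15a and Plk2, where it begins 166, 143, 12 and 62 bases before the start. The shorter TGACG, which also lies within every full element, was in 14 of the 26 (53.85%, against 20.8% of all) and in 6 of 9 promoters of the AP-1 and ATF list, of which 0 held the full element. It was also in 9 of 16 promoters (56.25%) of the heat shock list, whose median difference was -0.05, so its share is not particular to the lists that were high in icKO. In Fos it begins 129 and 66 bases before the start. The AP-1 site TGANTCA was in 1 of the 26 (3.85%, against 7.81% of all), and the NF-kB core GGANNTTCC in 2 (7.69%, against 4.26%). The heat shock core TTCNNGAA was in 2 (7.69%, against 8.52%) and the interferon response core GAAANNGAA in 4 (15.38%, against 8.56%). The shares were not adjusted for base composition, and a match of letters is a description and not a bound site. Promoters rather than genes were counted, and several of the 14 with TGACG are overlapping promoters of Egr2 that hold the same sites.

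The AP-1 and ATF genes encode dimeric transcription factors that are among the first genes switched on by a stimulus. In the p50 pair 7 of 9 measured members were higher in icKO (44.3% of all genes were), 4 of them at least 2-fold (0.304% of all). The list median was 0.41, against -0.03 over all measured genes. Atf3, a stress-induced factor that can restrain inflammatory transcription, lay at 10.47 on the control p50 array and at 12.77 on the icKO p50 array, a 4.94-fold difference and the largest of all 16129 genes. Its level on the other 6 arrays was 9.82 in control and 10.64 in icKO when naive, 9.26 and 10.57 in EAE, and 9.73 and 10.08 under iguratimod. The icKO p50 array was thus the highest of the 8 for Atf3, above every other array by more than 2 log2 units, and icKO was the higher of the genotypes in all 4 states.

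Fos, a partner of Jun in the AP-1 dimer, lay at 11.34 in control and 12.90 in icKO in the p50 pair. The other Fos levels, control before icKO, were 10.61 and 11.51 naive, 8.40 and 11.77 in EAE, and 9.85 and 10.08 under iguratimod. The genotype difference of Fos was therefore larger in EAE (3.38) than in the p50 pair (1.56), although its highest level was on the icKO p50 array. Fosb differed by 1.48 and Jun by 1.41 in the p50 pair, and both, like Fos, had their highest level of the 8 on the icKO p50 array, at 14.86 and 14.45. Jund, a more constant member of the family, differed by 0.41, and Batf3, Mafg, Mafk and Batf differed by between -0.04 and 0.13. The difference in this family was thus carried by 4 inducible members, and with the 3 members below the filter included the list median was 0.12.

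The other immediate early genes include zinc finger factors, phosphatases and regulators that shut a response down. In the p50 pair 20 of 22 measured members were higher in icKO, where 44.3% of all measured genes were, and their median difference was 0.56. The difference reached 1.5-fold for 10 of them and 2-fold for Klf6 alone, and 4 of the 22 passed the filter through 1 array only. Counted over all 31 members with a probe set, 27 were higher and the median was 0.48. Klf6, a zinc finger factor of macrophage activation, lay at 12.31 and 13.67. In the other states, control before icKO, Klf6 lay at 10.99 and 12.54 naive, 11.50 and 12.65 in EAE, and 11.67 and 11.89 under iguratimod, so its icKO p50 level was again the highest of the 8. Egr1, a growth-response zinc finger factor, differed by 1.0 and its relative Egr2 by 0.73. The antiproliferative genes Btg2 and Btg1 differed by 0.96 and 0.72, and Klf4 and Klf2, factors that temper macrophage activation, by 0.94 and 0.82. Rgs1, which shortens chemokine receptor signalling, differed by 0.92, and Ier2 by 0.69.

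The members whose promoters are shown above gave differences of 0.80 for Ppp1r15a, a phosphatase subunit that ends the stress-induced block of translation, of 0.56 for Dusp1, a phosphatase that switches off MAP kinases, and of 0.49 for the kinase gene Plk2. Dusp1 lay at 17.87 and 18.43 in the p50 pair. In EAE it lay at 14.56 in control and 17.48 in icKO, a larger difference (2.92) reached from a lower control level. Zfp36 and Myc differed by 0.03 and 0.02, Ier5 by -0.09 and Zfp36l2 by -0.13. Zfp36, whose protein speeds the decay of cytokine messages, was thus nearly equal on both p50 arrays, although its difference was 1.30 in EAE. In the other 3 states the list median was 0.51 (naive), 0.94 (EAE) and 0.17 (iguratimod).

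**Figure D2:**
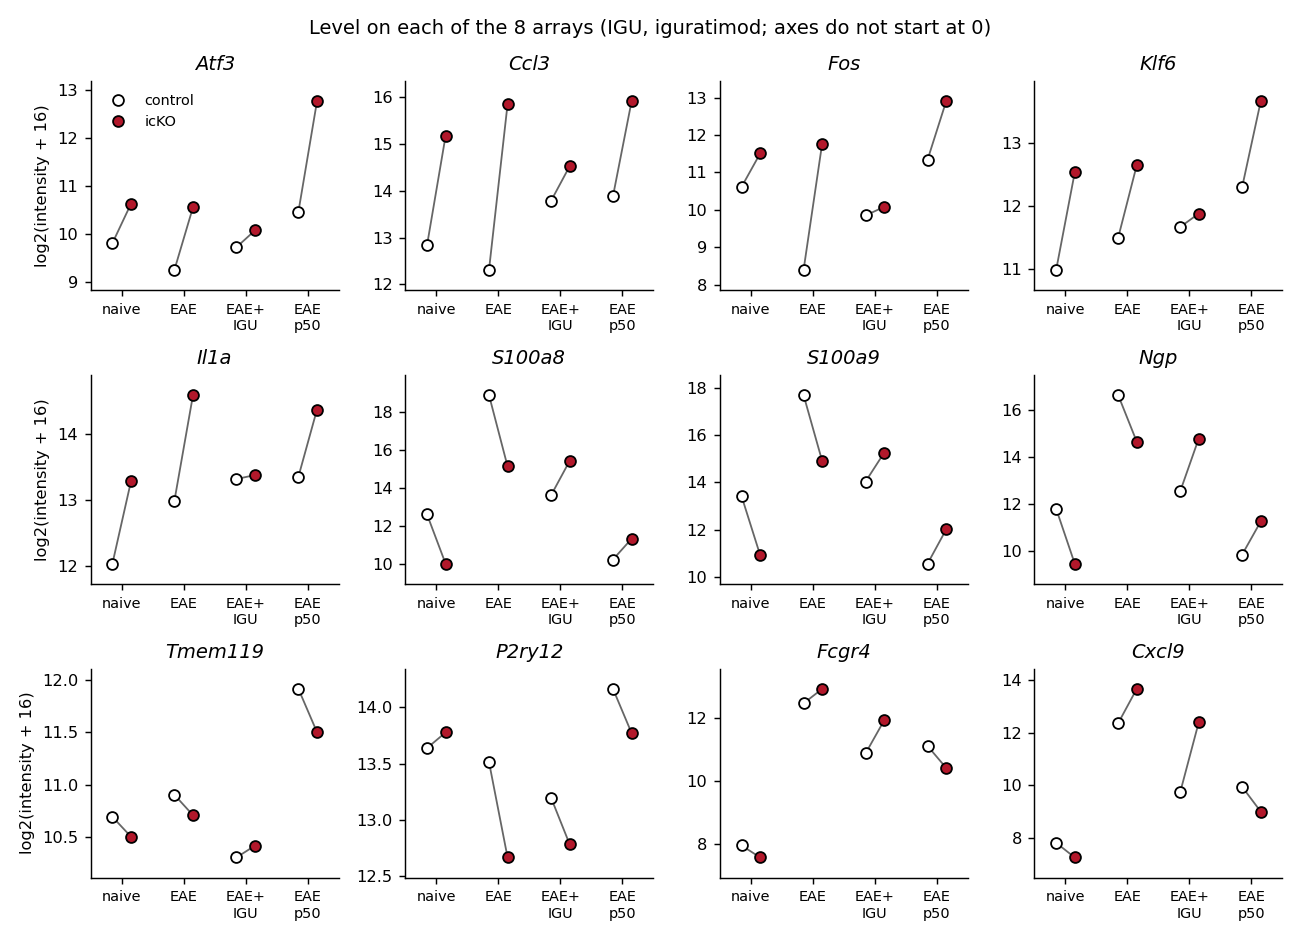
Level of 12 genes on each of the 8 arrays (y axis, log2(intensity + 16), axes not starting at 0), with control as open and icKO as filled points, 1 array each, joined within a state (x axis). Atf3, Fos and Klf6 are highest on the icKO p50 array, whereas S100a8, S100a9 and Ngp change the sign of the genotype difference between states.

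Chemokines were the second group of high genes. Of 9 measured CC chemokine genes 6 were higher in icKO, 4 of them at least 2-fold (0.304% of all measured genes were), with a list median of 0.56 that became 0.22 over the 13 members with a probe set. Ccl3, which attracts monocytes and T cells, lay at 13.89 in control and 15.92 in icKO. On the other arrays, control before icKO, it lay at 12.83 and 15.18 naive, 12.31 and 15.86 in EAE, and 13.78 and 14.53 under iguratimod. Ccl3 was thus higher in icKO within each of the 4 pairs. Over all measured genes 12.7% had the same sign in all 4. Ccl4, its neighbour on chromosome 11, lay at 9.11 and 10.16 in the p50 pair.

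Ccl2, the main attractant of CCR2-bearing monocytes, lay at 11.47 in control and 12.72 in icKO in the p50 pair. Ccl2 was higher still on both EAE arrays, at 12.59 and 15.43, and on both iguratimod arrays, at 12.85 and 13.51. Ccl12, a further CCR2 ligand of mice, differed by 1.08 in the p50 pair and by 0.68 naive, but by -0.20 in EAE and -0.11 under iguratimod. Ccl8 differed by 0.56 and Ccl5 by 0.22, while Ccl6 and Ccl9, which microglia express without stimulation, both differed by -0.02. Ccl3, Ccl4, Ccl2 and Ccl12 lie on the same chromosome and are close paralogs in pairs, so cross-hybridisation between partners was not tested.

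The CXC chemokines were mixed. Cxcl13, a B cell attractant, differed by 0.96 (10.90 in control and 11.87 in icKO), Cxcl10 by 0.45 and Cxcl2, a neutrophil attractant, by 0.42. Cxcl9, an interferon gamma induced attractant of activated T cells, went the other way and was the lowest of the 3032 genes of named kinds bright enough to be named, at 9.95 in control and 9.01 in icKO. Its other levels, control before icKO, were 7.82 and 7.26 naive, 12.37 and 13.68 in EAE, and 9.74 and 12.41 under iguratimod. Cxcl9 was therefore lower in icKO in the naive and p50 pairs and higher in icKO in the other 2 pairs. The list median over 6 measured members was 0.32, with 5 higher (44.3% of all genes were). Of the 6, 2 passed the filter through 1 array only, and the median over all 11 members with a probe set was 0.20.

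Cytokines and NF-kB feedback genes showed a few high members in lists that were otherwise flat. Il1a, an alarm cytokine that microglia hold ready, lay at 13.35 in control and 14.37 in icKO. Il1a was also higher in icKO when naive, at 12.04 and 13.29, and in EAE, at 12.99 and 14.59, and differed little under iguratimod, at 13.32 and 13.38. Il1b differed by 0.60 in the p50 pair, Tnf by 0.55 and Nlrp3, the sensor of the inflammasome, by 0.36, whereas the median over 12 members of the interleukin 1 and inflammasome list was 0.03. Tnfaip3, encoding the enzyme A20 that ends NF-kB signalling, differed by 1.15 and Nfkbiz, a nuclear co-regulator of secondary response genes, by 1.03. The inhibitor gene Nfkbia differed by 0.16 and the subunit genes Rel and Rela by -0.03 and -0.10. Of 15 measured NF-kB genes 12 were higher (44.3% of all genes were), 2 of them at least 2-fold (0.304% of all), and the median was 0.04.

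The rest of the 20 highest named genes were of several kinds. Adamts1, a secreted matrix protease, differed by 1.46, Id2, an inhibitor of helix-loop-helix factors, by 1.03, and the linker histone gene H1f2 by 1.05. Mid1, an X-linked ubiquitin ligase gene, lay at 13.64 and 15.14 and differed by 1.5 with its brightest probe set and by 1.12 with the mean of its probe sets. Its difference was 1.42 naive, 0.50 in EAE and -1.06 under iguratimod. In all, 6 of the 49 genes at least 2-fold higher are on the X chromosome, as are 959 of all 16129 measured genes. Heat shock genes were high only in part, with Hspa1a, the inducible HSP70 gene, at 8.33 and 9.29 and Hsp90aa1 at 11.32 and 11.87. Stip1, a co-chaperone that links both, differed by -0.48 and the endoplasmic reticulum chaperone gene Hsp90b1 by -0.36, and the list median over 15 genes was -0.05.

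Neutrophil markers accounted for 4 of the 20 highest named genes. Of 13 measured neutrophil markers 12 were higher in icKO (44.3% of all genes were), with a median of 0.41. Of the 13, 1 passed the filter through 1 array only. Over all 16 with a probe set 14 were higher and the median was 0.29. S100a9, which with S100a8 forms the alarm protein calprotectin, lay at 10.55 in control and was higher by 1.45 in icKO, and S100a8 lay at 10.22 and 11.31. The granule genes Ngp and Camp lay at 9.87 and 11.27, and at 9.09 and 10.42. These levels were low for the series, since the control EAE array had S100a8 at 18.87 and S100a9 at 17.69.

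The summed intensity of the neutrophil list was 28811 in control and 32835 in icKO in the p50 pair, against a range of 16926 to 951612 on the other arrays. Csf3r, which microglia also express, made up most of both p50 sums and differed by -0.23. Without Csf3r, left out after its values were seen, the sums were 7969 in control and 15117 in icKO, against 8335 to 932363 on the other arrays. The primary granule genes Elane and Mpo lay below the array median on both p50 arrays, at 6.78 and 6.81 and at 7.31 and 7.29. Monocyte markers were higher in 6 of 7 measured cases (44.3% of all genes were) with a median of 0.29. Of the 7, 1 had passed the filter through 1 array only. Over all 11 with a probe set 10 were higher and the median was 0.18. Their summed intensity was 4060 in control and 4997 in icKO. Ms4a4c differed by 0.56 and Ly6c2, the surface marker of inflammatory monocytes, lay at 9.54 and 9.88, against 14.27 and 13.96 in the EAE pair. The part of these cells in the differences of the chemokine and immediate early genes was not tested, and in bulk RNA fewer cells of a type and less RNA per cell cannot be told apart.

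Most markers of astrocytes, oligodendrocytes, neurons and T and NK cells lay below the array median on both p50 arrays. Above it, control before icKO, were 3 and 4 of 11 for astrocytes and 4 and 6 of 15 for T and NK cells. For oligodendrocytes it was 3 of 13 and for neurons 1 of 13, on both arrays. Gfap, Mog, Snap25 and Cd3e lay below it, but Slc1a3 of astrocytes lay at 10.06 and 9.79 and Il7r of T cells at 10.5 and 10.3. Some members of the B cell and endothelial lists were bright as well, with Ighm at 13.9 and 13.8 and Bsg at 13.05 and 12.93. The oligodendrocyte list had 3 measured members of 13, all lower in icKO, but over all 13 with a probe set 7 were higher and the median was 0.02. Its summed intensity was 25767 in control and 22198 in icKO, nearly all of it from Trf, at 14.51 and 14.27, and without Trf it was 2471 and 2475. Ttr, the transthyretin gene that the choroid plexus expresses strongly, was the second lowest named gene at 11.43 and 10.61, and the 6 other arrays had it at 8.65 to 10.53. The choroid plexus marker Folr1 lay at 7.46 and 7.37, below the array median on both.

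Most homeostatic genes were lower in icKO by small amounts. Of 22 homeostatic genes 18 were lower, with a median of -0.08, and of the 11 microglia markers 10 were lower, with a median of -0.24, where 55.7% of all genes were lower. Tmem119, a membrane protein found on microglia but not on blood macrophages, lay at 11.91 in control and 11.50 in icKO. Both levels were above those of the other 6 arrays, which lay between 10.30 and 10.90. P2ry12, the ADP receptor that guides microglial processes, lay at 14.16 and 13.77, and the other arrays ranged from 12.67 to 13.78. Fcrls differed by -0.45 and Entpd1, the ectoenzyme that breaks down ATP, by -0.43. Sall1, a transcription factor of microglial identity, lay at 13.59 on both arrays, and Csf1r, the receptor they need to survive, differed by -0.08. None of these reached 1.5-fold.

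The Fc gamma receptor list was the only list of 10 or more measured members in which every member was lower. Its median was -0.21 over 10 genes, and 55.7% of all measured genes were lower. Fcgr4, an activating receptor for IgG2 antibodies, lay at 11.12 in control and 10.42 in icKO. It was lower in icKO when naive as well (7.95 and 7.56) and higher in icKO in EAE (12.48 and 12.94) and under iguratimod (10.88 and 11.93). The inhibitory receptor gene Fcgr2b differed by -0.38, the adaptor gene Tyrobp by -0.38 and the kinase gene Syk by -0.31. Lower values were also the rule for the NADPH oxidase genes, 6 of 7, with a median of -0.22. Cybb, which encodes the catalytic subunit of that oxidase, was the exception at 10.10 and 10.69, while its partner Cyba lay at 14.51 and 14.21.

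Lysosomal genes were lower in icKO in the p50 pair and, by their medians, higher in icKO in the other pairs. Of 13 cathepsin and cystatin genes 12 were lower (55.7% of all genes were). Their median was -0.21, against 0.26 naive, 0.30 in EAE and 0.83 under iguratimod. Of 20 genes for lysosomal hydrolases, membrane proteins and the proton pump 17 were lower, with a median of -0.15, against 0.22, 0.09 and 0.52. Medians of the respiratory chain genes had the same layout, at -0.12 against 0.19, 0.16 and 0.28. So did those of the proteasome genes, at -0.04 against 0.33, 0.14 and 0.38, so this layout was not particular to lysosomal genes. Hexa, a subunit of the enzyme that degrades gangliosides, lay at 14.33 in control and 13.84 in icKO. In the other states, control before icKO, Hexa lay at 12.97 and 13.46 naive, 13.89 and 14.03 in EAE, and 13.23 and 14.27 under iguratimod, so the control p50 array was the highest of the 8. Tpp1, the peptidase of a neuronal storage disease, differed by -0.47, Lamp1 by -0.29 and Ctsz by -0.25 in the p50 pair. Cstb, an inhibitor of cathepsins, differed by 0.05 there and by 1.67 in EAE.

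Genes of disease-associated microglia did not separate the genotypes in the p50 pair. Of 23 such genes 9 were higher (44.3% of all genes were), with a median of -0.02, against 0.18 naive, 0.43 in EAE and 0.83 under iguratimod. Clec7a, the beta-glucan receptor that marks this state, lay at 13.12 in control and 13.03 in icKO. Under iguratimod it had lain at 9.38 and 14.24. Both p50 arrays thus had Clec7a close to each other and well above the naive arrays, at 9.12 and 9.65. Apoe differed by 0.20, Csf1 by 0.43, Trem2 by -0.35 and Cst7 by -0.35. Complement component genes C1qa, C1qb and C1qc differed by -0.36, -0.19 and -0.22.

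Interferon and antigen presentation genes were close between the p50 arrays, in that no measured member of the lists below reached 1.5-fold. Of 21 measured type I interferon response genes 12 were higher, with a median of 0.09, where 44.3% of all genes were higher. Bst2, which tethers virions to the membrane, lay at 11.86 and 11.55, above all other arrays. All 9 genes of the p200 family, which includes cytosolic DNA sensors, were higher, with a median of 0.26 and Ifi204 at 0.35 and Aim2 at 0.35. The p200 genes are close paralogs in a cluster and can share probe sequences. Of 10 interferon-inducible GTPase genes 8 were higher, with a median of 0.10 and Gbp4 highest at 0.53. Of 12 MHC class II genes 7 were higher, with H2-Aa at 0.52 and H2-Ab1 at 0.49 and the peptide-loading gene H2-DMa at -0.32. Of 14 MHC class I genes 7 were higher, with H2-K1 at 0.21. Genes of the respiratory chain were lower in 19 of 23 cases (55.7% of all genes were) with a median of -0.12, and Ndufa1 had the lowest value at -0.42.

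**Figure D3:**
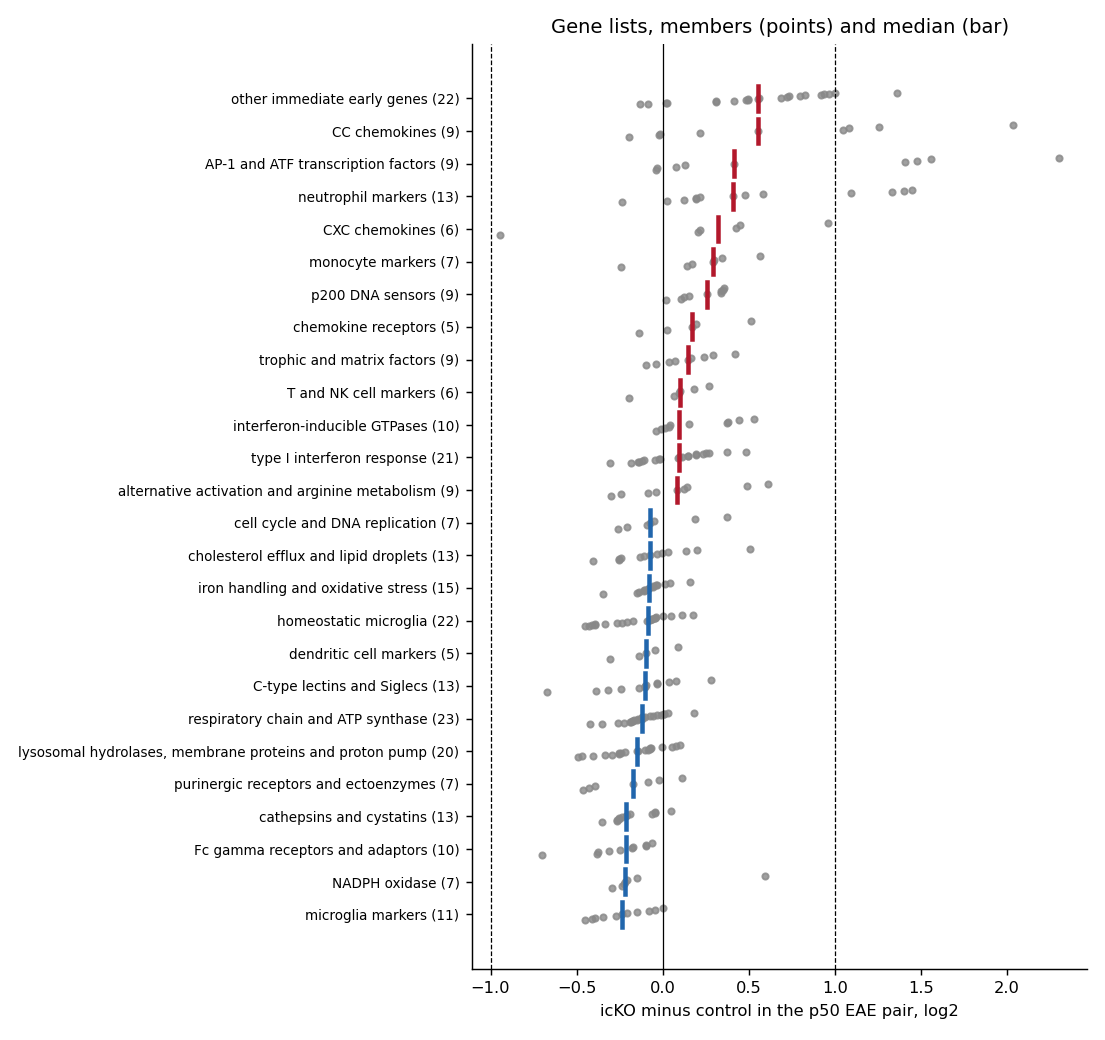
Difference between the icKO and control p50 arrays (x axis, log2) for the measured members (points, number in brackets) of the 13 gene lists with the highest medians (red bars) and the 13 with the lowest (blue bars) among lists with at least 5 measured members. Dashed lines mark 2-fold, and only the CC chemokine, immediate early, AP-1 and neutrophil lists of those shown have members at or beyond the upper line.

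The same genes were then compared over the 4 genotype pairs, which share no array. The spread of differences over the 16129 genes, as an SD, was smaller in the p50 pair, at 0.25, than in the naive (0.36), EAE (0.36) and iguratimod (0.42) pairs. The number at least 2-fold higher was 49 in the p50 pair, 46 (0.285%) naive, 183 (1.13%) in EAE and 221 (1.37%) under iguratimod. The number at least 2-fold lower was 15 in the p50 pair, 238 (1.48%) naive, 84 (0.521%) in EAE and 300 (1.86%) under iguratimod. The genes were selected for their level on the p50 arrays, so the other pairs contain genes below the filter there. Across these genes, which are not independent replicates, the p50 differences correlated weakly with those of EAE (Pearson r = 0.12, Spearman rho = 0.09), naive (-0.08 and -0.14) and iguratimod (-0.05 and -0.07).

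**Figure D4:**
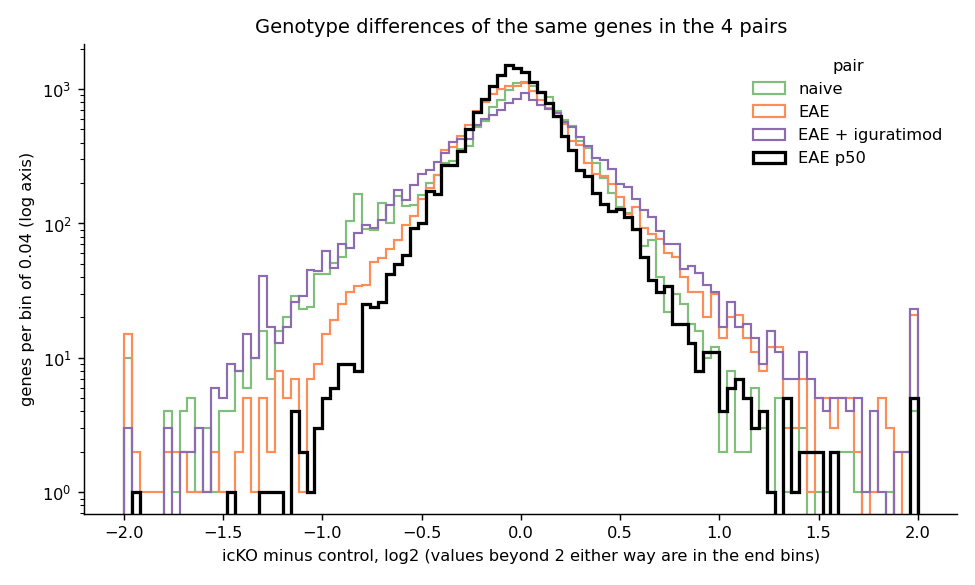
Number of genes (y axis, log scale) by icKO minus control difference (x axis, log2, bins of 0.04, values beyond 2 in the end bins) in each of the 4 pairs, over the same 16129 genes. The p50 pair (black) is the narrowest, with an SD of 0.25 against 0.36 to 0.42, and its upper tail is longer than its lower one.

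Of the 49 genes at least 2-fold higher in the p50 pair 34 were also higher in icKO when naive, 36 in EAE and 28 under iguratimod. Of the 20 highest named genes 16 were higher in icKO when naive (49.3% of all genes were), 15 in EAE (47.0%) and 17 under iguratimod (50.1%). The 4 neutrophil genes, which were lower in icKO naive and in EAE, and Ccl12, lower in EAE and under iguratimod, made up most of the exceptions, beside Mid1 and Jun under iguratimod. Of the 20 lowest named genes 9 were lower in icKO when naive (50.7% of all genes were), 9 in EAE (52.8%) and 6 under iguratimod (49.9%). These shares are over all measured genes. The 20 highest and 20 lowest come from bright genes of named kinds, whose own shares were not counted, so the 2 are not on a like base. Over all measured genes 2042 (12.7%) had the same sign in all 4 pairs. That is close to what signs drawn at random would give, so a shared sign alone is not a result.

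Of the 3032 genes of named kinds bright enough to be named, 333 had the same sign in all 4 pairs. Among these, those whose smallest difference was largest were Ccl3, H1f2, Ccl4, Ccl2, Tagap, Ccnl1, Anxa3 and Btg1 on the high side. Ccl3 differed by 2.35 naive, 3.56 in EAE, 0.74 under iguratimod and 2.03 in the p50 pair. Anxa3, an annexin that binds membrane phospholipid, was steadier, with 0.76, 0.49, 0.60 and 0.51 in the same order. On the low side the group held Crybb1, a crystallin gene that microglia express, with differences of -0.32, -0.32, -0.30 and -0.48, and also Unc93a2, Defb46, Zfp976, Rnase2a, Mrgpra4, Zfp60 and Frg2f3.

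Over all measured genes 2407 (14.9%) had a sign in the p50 pair opposite to that of all 3 other pairs. Signs drawn at random would give a share only slightly lower, so an opposite sign alone is not a result. The genes below come from the 3032 genes of named kinds bright enough to be named, of which 591 had such a sign. That is a larger share than over all measured genes, and the difference was not tested. Atp1b3, a beta subunit of the sodium pump, lay at 13.05 in control and 12.43 in icKO. In the other pairs icKO was higher, by 0.62 naive, 0.76 in EAE and 0.67 under iguratimod, but the level on the control p50 array was itself the highest of the 8. Snrpd3, a core protein of the splicing machinery, lay at 10.70 and 10.02 with the same layout, as did Ids, a lysosomal sulfatase gene, at 11.63 and 11.03, Ide, the insulin-degrading enzyme gene, at 11.04 and 10.34, and Szrd1. The others on that side were Tspan31, Dnajc15 and Smim11. On the high side Fas, the death receptor gene, lay at 15.08 and 15.67 and was lower in icKO by 1.02 naive, with a p50 difference of 0.60 that became 0.29 with the mean of its probe sets. Znfx1, an antiviral helicase gene, differed by 0.84, or by 0.41 with that mean. The rest of that side, Krtap19-5, Astx5, Ear14, Klk1b27, Krtap4-7 and Pramel44, belong to multicopy families whose values are uncertain.

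**Figure D5:**
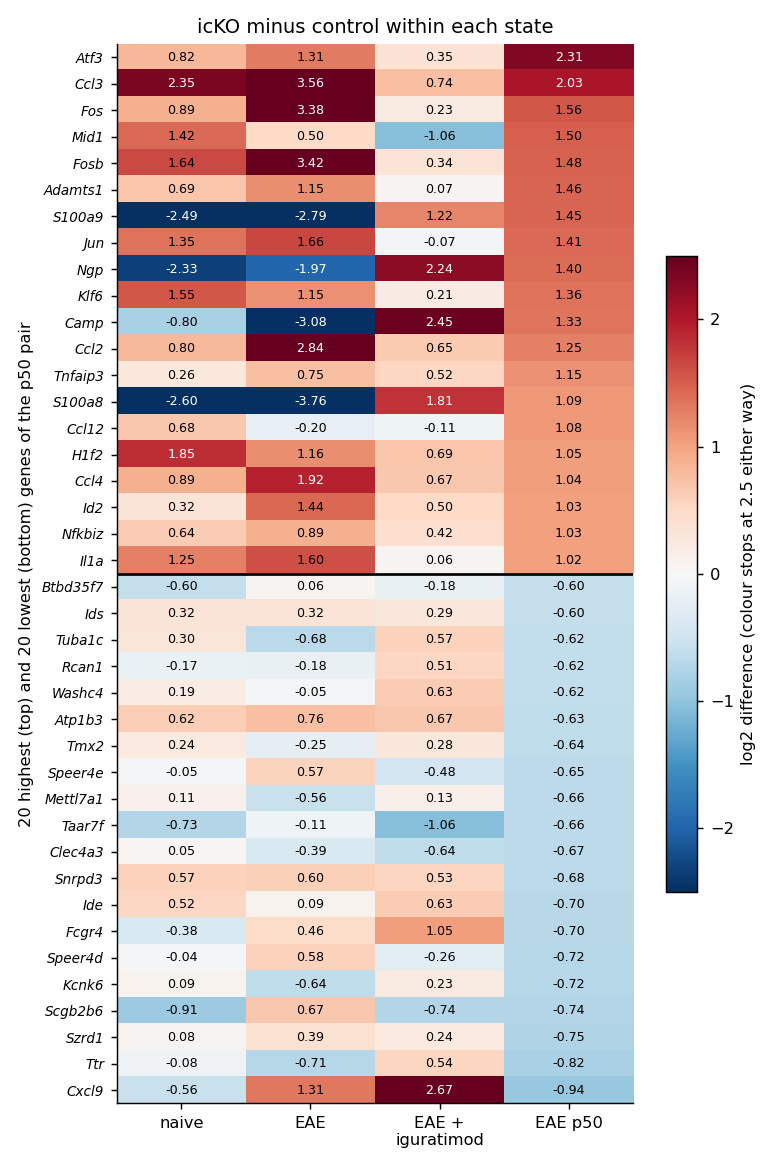
Genotype difference (icKO minus control, log2, colour and printed value) of the 20 highest and 20 lowest named genes of the p50 pair (rows) in each of the 4 states (columns, 1 pair of arrays each). Atf3 and Ccl3 are positive in all 4 columns, while S100a9 reads -2.49, -2.79, 1.22 and 1.45 and Cxcl9 reads -0.56, 1.31, 2.67 and -0.94.

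A test across arrays asked whether the genotype difference in the p50 pair departs from the one shared by the other 3 pairs. The linear model in limma gave the p50 pair a genotype effect of its own and left 2 residual degrees of freedom. At a Benjamini-Hochberg adjusted p of 0.05 it called 0 of 18234 genes tested (0.0%), with a lowest adjusted p of 0.9995. At an unadjusted limma p under 0.05 there were 427, fewer than chance alone would give at that threshold. Atf3 differed from the other pairs by 1.48 ± 0.41 (SE; limma unadjusted p = 0.017, adjusted p = 0.9995). Atp1b3 gave -1.31 ± 0.22 (limma unadjusted p = 0.0020, adjusted p = 0.9995) and Snrpd3 -1.25 ± 0.21 (limma unadjusted p = 0.0023, adjusted p = 0.9995). These genes were picked for their p50 differences, so their unadjusted p-values overstate the evidence. For Ccl3 the value was -0.18 ± 1.07, since the other 3 pairs differ widely among themselves. No gene was therefore shown to have a genotype difference particular to the p50 pair, and a p that misses the threshold does not show that the pairs are alike.

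Besides Cxcl9, Ttr, Fcgr4 and the genes above, the 20 lowest named genes were Kcnk6, a potassium channel gene, Clec4a3, a lectin receptor gene of myeloid cells, Mettl7a1, Tmx2, Washc4, Rcan1, an inhibitor of calcineurin, and the tubulin gene Tuba1c, all between -0.72 and -0.62. Tuba1c lay at 15.42 in control and 14.81 in icKO. The remaining Scgb2b6, Speer4d, Speer4e, Taar7f and Btbd35f7 are members of multicopy families. None of the 20 lowest reached 2-fold, and the value just inside that rank, for Btbd35f7, was -0.60.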

How the data were processed

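Microglial RNA from 8 groups was profiled on Affymetrix whole-transcript arrays, 1 array a group. RNA was extracted with TRIzol and a column kit and labelled through the GeneChip WT Pico kit, per the labels' protocols. The values the authors deposited are linear intensities, and Affymetrix Expression Console is named in the submitters' processing notes. How probes were summarised and normalized, and the genome build, are not given in the sources used here. Between 2.024% and 2.235% of values on an array exceed 65535, the maximum of a 16-bit scanner, and were kept as summarised values. Precision is limited by how few arrays there are.

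Of 65956 probe sets 31258 had 1 gene symbol, 1492 several and 33206 were not named here. Old symbols were updated through RefSeq (GRCm38.p6) in 1138 cases. A gene was represented by its brightest probe set (442 genes had several), as log2(intensity + 16), with no further normalization. Groups came from the labels, and the targeted gene is not reported here. Genes that exceeded the median of named probe sets on 1 or both arrays of the pair were described, and genes counted past 2-fold. Genes named individually were the 20 highest and 20 lowest whose brighter array lay above the 60th percentile of measured genes (a level of 9.51), leaving out predicted, small RNA, pseudogene, chemosensory receptor and antigen receptor segment names, of which 16 stood above the 20th highest and 71 below the 20th lowest. Up to 8 genes a side by sign over the 4 states, the main members of 59 gene lists and label checks were named as well. The gene lists and other choices were made with earlier results of these data known. The comparison of the p50 genotype difference with the other states used limma 3.58.1 in R 4.3.3 (prior SD 0.169, prior degrees of freedom 2.83), tested on simulated data. Since the p50 pair has an effect of its own, its p-values rest on the spread among the other 6 arrays, which may be technical in part. Python 3.11.15 with pandas 2.3.3 and numpy 2.4.6 did the rest, and matplotlib 3.10.9 drew the plots. Alternatives were the filter, pseudocount, scaling, probe set rule, threshold, autosomal genes, prior, and leaving out arrays.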

Additional observations from a re-analysis of the deposited data

Results flagged for a closer look

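For 3 gene lists the median difference lay at least 0.25 above 0 in the p50 pair and at least as far below 0 in another state. The neutrophil markers had a median of 0.4079 in the p50 pair, against -0.6828 in the naive pair and -2.4635 in the EAE pair. The p200 DNA sensors had a median of 0.2573, against -0.3855 in the naive pair. The monocyte markers had a median of 0.2926, against -0.3004 in the naive pair, but without the filter on dim genes their p50 median was 0.1776, below that bound. These differences between states were not tested for a list as a whole. The limma test of single genes called 0 of 18234 (427 at an unadjusted p under 0.05, fewer than chance alone would give). Among 16404 bright probe sets without a single gene symbol, which enter no comparison above, 89 were at least 2-fold higher in icKO and 47 at least 2-fold lower in the p50 pair.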

How the results depend on the processing

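The counts of 49 genes at least 2-fold higher and 15 lower stayed within 1.5 times under quantile normalization, median centring, a pseudocount of 1, the mean of probe sets, no filter and autosomal genes alone, whereas the lower count was 7 with a filter at the 70th percentile and 7 with a pseudocount of 64. With a 1.5-fold threshold the counts were 320 and 238. Without the filter the medians were 0.2182 for CC chemokines, 0.1244 for AP-1 and ATF factors and 0.2889 for neutrophil markers. At the 70th percentile AP-1 and ATF factors gave 1.4437 over fewer genes. The oligodendrocyte marker median reversed without the filter, from -0.1531 over 3 genes to 0.0212 over 13. Of the list medians over all alternatives 342 moved by less than 0.1, 21 by more and 1 reversed (changes of sign of medians under 0.1 not counted), and of the values for named genes 438 kept within 1 SD of the p50 differences and 3 did not. Limma called 0 genes in every alternative run. Leaving out an array of another state also took its partner out of the comparison, because the fit gives each state its own mean. Those runs thus removed whole pairs, gave the same result for both arrays of a pair, and are not a check of single arrays. A p50 array cannot be left out without losing the comparison. The genotypes are paired by state in the limma fit itself. No paired analysis was possible beyond that because each group holds 1 array.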

Other observations

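A cluster of microRNA genes, chosen after its values were seen, also stood out in the p50 pair. The probe sets of Mir23a, Mir27a and Mir24-2, which are known to be processed from 1 primary transcript, differed by 1.15, 1.24 and 1.2. Mir23a lay at 9.98 in control and 11.13 in icKO, Mir27a at 10.30 and 11.53 and Mir24-2 at 9.85 and 11.04. In the EAE pair the differences were 0.16 for Mir23a, 0.79 for Mir27a and 1.27 for Mir24-2. A whole-transcript array does not separate mature microRNAs from their precursors, so these values are not levels of the mature forms.

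Some lipid and arachidonate genes differed by smaller amounts. Alox5ap, which hands arachidonate to 5-lipoxygenase, lay at 14.10 in control and 13.63 in icKO, and Pnpla2, a triglyceride lipase gene, at 9.70 and 9.29. Ch25h, which makes 25-hydroxycholesterol, differed by 0.51, and the median of 13 genes of cholesterol efflux and lipid droplets was -0.07. Odc1, the first enzyme of polyamine synthesis, differed by 0.61 and Arg1, the arginase gene, by 0.49, the latter between 7.88 and 8.37, near the array median. In the EAE pair Arg1 differed by 2.82.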
